A study of Rattus norvegicus with 92 samples.

Results

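Gene expression in the hypothalamus of male Wistar-Kyoto rats was compared between 6 samples from animals that breathed 3.16 ppm acrolein and 6 samples from animals that breathed filtered air (0 ppm). All samples with a hypothalamus label entered the comparison, and no measured value was used to choose them. They were the 12 hypothalamus samples among the 92 samples of 8 tissues in the series. The hypothalamus table held 20508 rows, of which 19902 were detected in 2 or more samples and tested. The adult rats of both groups sat in nose-only tubes for 4 h. In the acrolein group the concentration was raised in steps over the opening part of the session. Necropsy began right after exposure and was staggered between the groups, so the time to collection differed between rats. Freezing of tissue is described for liver in the study's methods. Samples are called by their group and by the number in their name: air 1, 3, 5, 6, 7 and 8, and acrolein 9, 10, 11, 12, 14 and 15. The labels do not state that each number is a separate animal, so p-values measure the spread between these samples.

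The hypothalamus sets hormone release from the pituitary, body temperature, feeding and autonomic outflow. In the hypothalamic-pituitary-adrenal axis, neurons of its paraventricular nucleus release corticotropin-releasing hormone and vasopressin, which drive adrenocorticotropic hormone from the pituitary and, through it, glucocorticoids from the adrenal cortex. Acrolein is a reactive aldehyde of smoke that irritates the airway and activates sensory nerve endings there. The comparison asks whether RNA levels in this brain region differed soon after a single exposure.

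Rows carried Ensembl transcript identifiers (19719 rows) or gene identifiers (789 rows), and no table used here pairs these with gene symbols. Hormones, stress-response genes and cell type markers are therefore not named, and no sequence is shown. Results are given for identifiers and for groups of rows defined by their level in other tissues. The values are normalized counts, that is, read counts divided by the authors' scaling factor for each sample. Dividing each column by its smallest value gave back whole reads, from 12775556 to 18469744 per sample (median 15770584), spread over 17931 to 18938 rows above 0.

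Each sample was nearest to the hypothalamus. Across the 20508 rows, its log2 values correlated at 0.957 to 0.986 with the mean of the other hypothalamus samples, at 0.937 to 0.965 with the hippocampus mean and at no more than 0.811 with the mean of any of the other 6 tissues. Those points share rows and the other tissues were normalized in tables of their own, so these values only describe the tissue.

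Some samples stood apart, and not by exposure. Air 6 and acrolein 15 lay at 96.6 and 111 on the first principal component, while the other 10 samples lay between -54.3 and 30.0. Among those 10, the air samples ran from -54.3 to -24.5. Acrolein 12 lay at -28.8, and the other acrolein samples ran from -13.5 to 30.0. Acrolein 11 lay at 113 on the second component, and its name alone among the 12 carries the suffix R1, whose meaning the labels do not give. Air 6 and acrolein 15 were each other's closest match (r = 0.972 over 15821 rows whose mean reached 10). In 3785 of those rows (23.9%) this pair was above or below all 10 other samples, against 1793 rows (11.3%) for the next pair, air 6 with acrolein 11. The median correlation within air was 0.945, within acrolein 0.920 and between the groups 0.938. The hippocampus samples numbered air 6 and acrolein 15 had median correlations of 0.948 and 0.952 with the rest of their tissue, where all 12 samples ran from 0.894 to 0.955. Within the hippocampus the closest match of air 6 was again acrolein 15 (r = 0.981). That of acrolein 15 was air 5 (r = 0.983). What sets the hypothalamus samples apart was not tested.

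**Figure D1:**
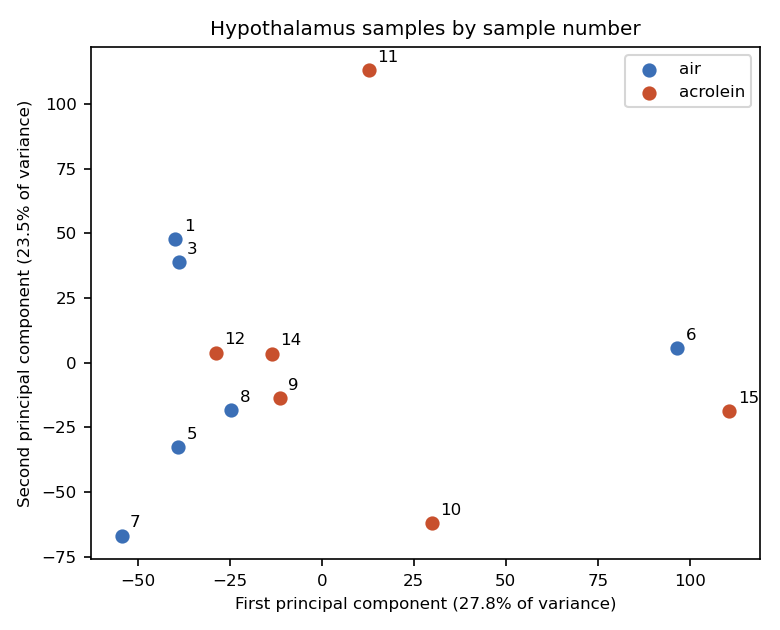
Hypothalamus samples on the first 2 principal components of log2(normalized count + 1), with points coloured by exposure and marked with the sample number. Air 6 and acrolein 15 lie together at the right, and acrolein 11 lies at the top. Among the rest, air samples lie to the left of the acrolein samples, except that acrolein 12 lies within the air range.

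With limma, no row passed the study's limits between acrolein and air, which ask for an adjusted p no greater than 0.1 and a fold change past 1.2 upward or 0.833 downward. With limma on log2(normalized count + 1), 0 of 19902 rows were called (0%), and the smallest Benjamini-Hochberg adjusted p was 0.963. At an unadjusted p under 0.05 there were 536 rows (2.69%), of which 193 were higher and 343 lower after acrolein. edgeR's quasi-likelihood test on the recovered reads also called 0 rows (0%), with 556 at an unadjusted p under 0.05 and a smallest adjusted p of 0.932. DESeq2 called 1 row of 20086 (0.00498%), described below, with 576 rows at an unadjusted p under 0.05.

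The intervals show how closely these 12 samples placed the difference of a single row. Unlike the calls, they are not adjusted over the tested rows. The median margin of the 95% interval, from the estimate to either bound, was 0.66 on the log2 scale, or 1.58-fold, over all tested rows. It was 1.04 for the 4082 rows with a mean normalized count under 10, and 0.80 for the 4567 rows from 10 to 100. It was 0.52 for the 7684 rows from 100 to 1000, and 0.46 (1.37-fold) for the 3569 rows of 1000 and over. In 57.3% of all rows the interval lay wholly within a 2-fold difference either way. That share was 11.7% in the lowest level and 82.9% in the highest, so a change above 2-fold lay outside the interval for most abundant RNAs but for few of the scarce ones. The median log2 fold change over all rows was -0.006.

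**Figure D2:**
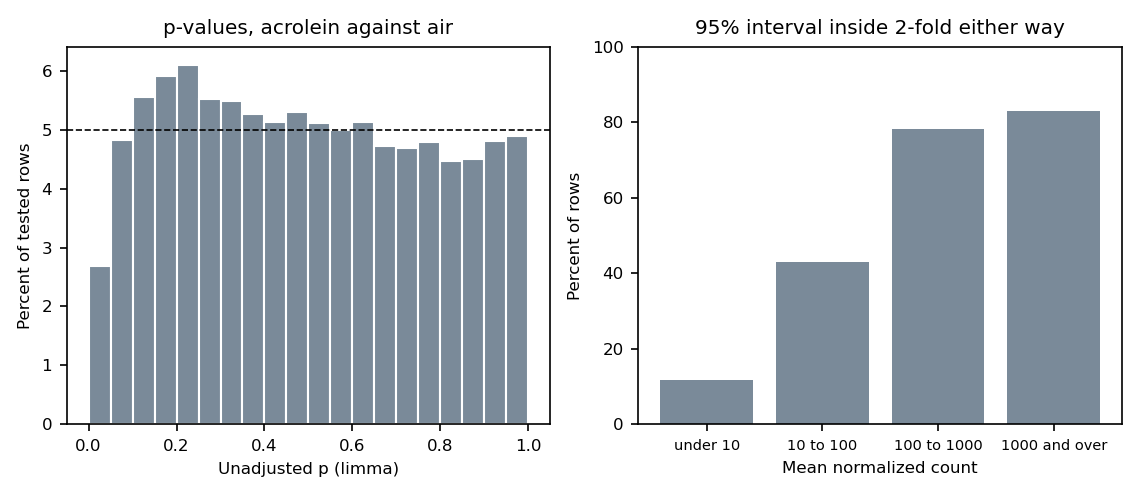
Left, percent of the 19902 tested rows by unadjusted limma p, in steps of 0.05, with a dashed line at 5%. Right, percent of rows in each level of mean normalized count whose 95% interval for acrolein against air lies within 2-fold. The lowest p step holds 2.69% of rows, and the share of rows with the interval within 2-fold goes from 11.7% to 82.9% with level.

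The leading rows had the smallest unadjusted p in each direction, among rows with a mean of at least 10 over all 12 samples. ENSRNOG00000067743 and ENSRNOT00000016843 had air means of 3.12 and 4.32, so they passed that limit only through the acrolein group. ENSRNOG00000067743 was the first of the leading rows higher after acrolein. Its normalized count in air had a lowest value of 0, a median of 0.93 and a highest value of 11.7. After acrolein the lowest was 0.947 (acrolein 10), the median 105 and the highest 178. All acrolein samples but acrolein 10 lay above every air sample, and the groups overlapped through that 1 sample. The mean was 3.12 ± 4.67 in air and 105 ± 66.2 after acrolein (SD, n = 6 each), and the log2 difference was 4.62 (SE 1.02, 95% interval 2.43 to 6.80). Its limma adjusted p was 0.963. It was 0.0171 without acrolein 10, the 1 acrolein sample within the air range, so that value is no separate support. With 1 sample left out, limma called the row in 1 of 12 fits. In the hippocampus, the other brain tissue in this series, the same row ran from 0 to 247 within its own table, with a log2 difference of 1.14 (SE 1.43). There, values near 0 and values above 100 occurred among both air and acrolein samples.

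ENSRNOT00000016843 was the next row higher after acrolein and the 1 row that DESeq2 called. In air it ran from 1.71 to 8.29 with a median of 3.89. After acrolein it ran from 2.84 to 128 with a median of 44.0. Acrolein 9, 11, 12 and 14 lay above all air samples, at 31.4, 57.2, 56.6 and 128, while acrolein 10 and acrolein 15 lay within the air range at 2.84 and 8.08. The log2 difference was 2.49 (SE 0.71), with a limma adjusted p of 0.963. DESeq2 gave 3.47 with an adjusted p of 0.0187, and edgeR gave 3.46 with an adjusted p of 0.932. With 1 sample left out, DESeq2 called it in 7 of 12 fits. The call was lost without air 3, air 5, air 8 or acrolein 14 (adjusted p from 0.136 to 0.429), and DESeq2 gave no adjusted p without air 6. In the hippocampus no sample passed 8.67, and the log2 difference was -0.16 (SE 0.62).

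ENSRNOT00000011344 was the leading row among those lower after acrolein. It had the most reads of the 4 rows. Air ran from 315 to 774 (median 406) and acrolein from 131 to 306 (median 221). The groups did not overlap, though air 6 at 315 and acrolein 9 at 306 nearly met. The mean was 462 ± 174 in air and 216 ± 73.1 after acrolein (SD, n = 6 each). The log2 difference was -1.09 (SE 0.27, 95% interval -1.68 to -0.51), with a limma adjusted p of 0.963. In the hippocampus it was -0.95 (SE 0.34), where air ran from 291 to 669 and acrolein from 98.0 to 444.

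ENSRNOT00000044575 was the next row lower after acrolein. Air ran from 36.7 to 56.4 (median 49.6) and acrolein from 0 to 69.9 (median 3.01). Acrolein 9, 10 and 15 had 0 reads, acrolein 11 and 14 had 10 and 5 reads, and acrolein 12 was above all air samples with 79 reads. The log2 difference was -3.52 (SE 0.89), with a limma adjusted p of 0.963. Its size depended on the scale and the tool. With limma it was -5.22 at a pseudocount of 0.1 and -2.28 at a pseudocount of 5. On the recovered reads it was -1.69 with edgeR and -1.74 with DESeq2. The unadjusted p was 0.00134 with limma and 0.086 with edgeR, and DESeq2 gave no p. In the hippocampus 1 air sample was at 0 and the other 11 samples ran from 17.7 to 112, with a log2 difference of 0.79.

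**Figure D3:**
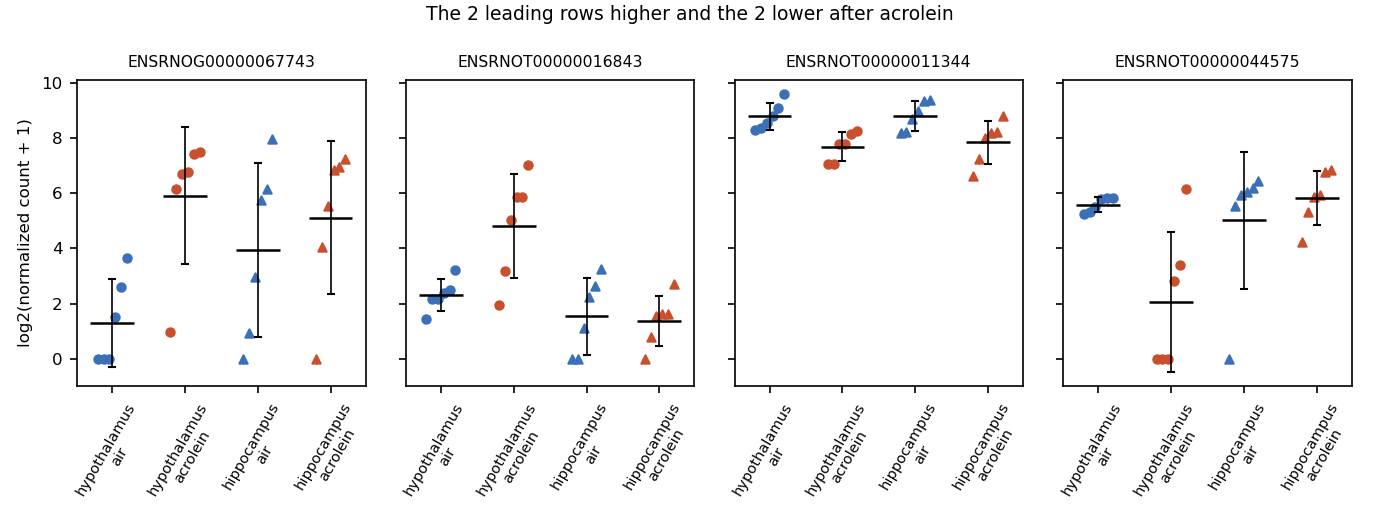
log2(normalized count + 1) of the 2 leading rows higher and the 2 lower after acrolein, by sample (circles hypothalamus, triangles hippocampus), with mean and SD bars for 6 samples a group. ENSRNOT00000011344 lies lower after acrolein in both tissues, while the other 3 rows include samples near 0 beside high samples of the same group.

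Rows that were near 0 in some samples and high in others of their group were then counted. Of the 20 leading rows (10 higher, 10 lower), 4 had at most 3 reads in 1 sample and at least 30 in another of the same group, and 4 did so in the hippocampus. Over all tested rows 558 did (2.80%), and 9.77% of those with a mean from 10 to 100. The 20 rows had log2 differences from 0.50 to 4.62 in size, and in 9 of them the difference was under 2-fold. Groups did not overlap in 4 of the 20. Over the whole table they did not overlap in 17 rows (0.0854%), 9 higher and 8 lower, of which 10 had a mean of at least 10 and 6 a mean of at least 100.

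The number of rows past a limit depended on air 6. Without that sample, limma still called 0 rows (smallest adjusted p 0.334), but 2498 rows had an unadjusted p under 0.05. For scale, the fits to all 12 samples tested 19902 rows with limma and 20086 with DESeq2. Without air 6, DESeq2 called 538 rows, 340 higher and 198 lower after acrolein. Of these, 510 had a limma p under 0.05, but both tests used the same samples, so this overlap is no separate support. edgeR called 0 rows with air 6 left out. Leaving out each of the other 11 samples in turn gave 294 to 872 rows with limma at that level and 0 to 3 DESeq2 calls. limma called 1 row in these fits, ENSRNOG00000067743 without acrolein 10. Without air 6 and acrolein 15 together, limma and edgeR called 0 rows, 1848 rows (9.32%; 783 higher and 1065 lower) had an unadjusted limma p under 0.05, and DESeq2 called 119. With acrolein 11 left out as well, these were 0 and 0 calls, 1887 rows (9.54%) and 255 DESeq2 calls. The smallest adjusted limma p was then 0.247, and the median margin for rows with a mean of at least 100 went from 0.50 to 0.40. Single samples were left out in turn over all 12. The edgeR and DESeq2 fits among these were chosen after seeing the data. Samples were left out together because of their place in the sample map, seen before these fits.

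**Figure D4:**
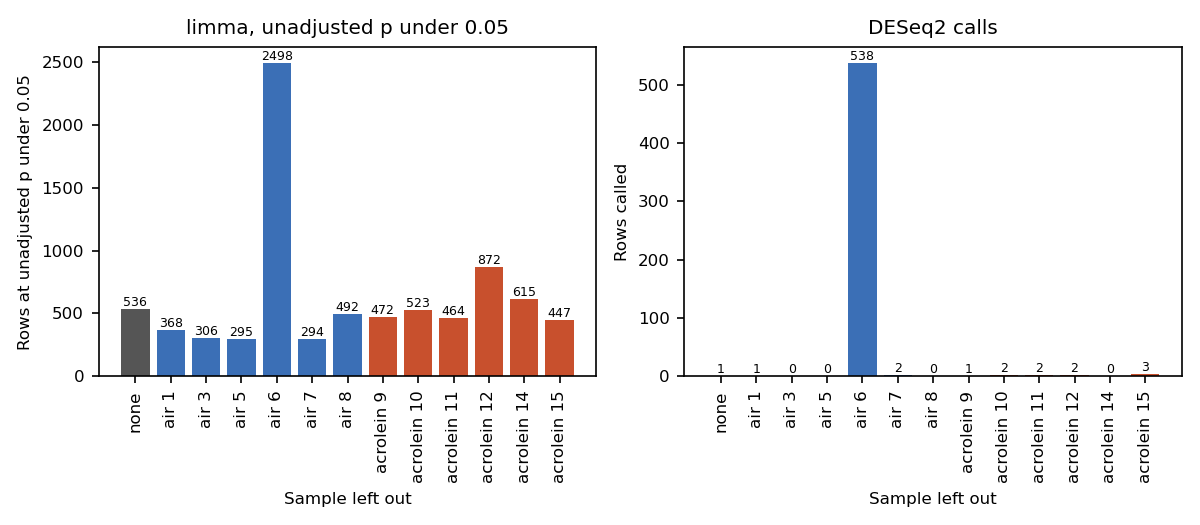
Left, rows at an unadjusted limma p under 0.05 with no sample or 1 sample left out. Right, rows called by DESeq2 on recovered reads in the same settings, with bars coloured by the exposure of the sample left out. Leaving out air 6 gave 2498 rows and 538 calls, against 536 rows and 1 call with all 12 samples.

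RNAs that mark the hypothalamus against the hippocampus were then examined as a group. The 34 rows that averaged 100 or more in the hypothalamus and at least 8 times the hippocampus mean were taken without regard to exposure. Of these, 26 had their highest mean in the hypothalamus among the 8 tissues. After acrolein 18 were higher and 16 lower, 0 were called by limma and 0 had an unadjusted p under 0.05, against 2.69% over all rows. Their median log2 difference was 0.005, with single rows from -0.95 to 0.69, and that of all 11253 rows whose mean reached 100 was -0.001. Their intervals were wider, with a median margin of 0.70 against 0.50, and in 20 of the 34 the interval lay within 2-fold. With a limit of 4 times the hippocampus mean there were 105 rows, 52 higher and 53 lower, of which 2 had an unadjusted p under 0.05.

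A pair of these rows is given by sample group. It was taken after the values were seen, as the highest in the hypothalamus with under 1 part in 10 of that level elsewhere. ENSRNOT00000023869 ran from 938 to 5684 in air (median 2526) and from 917 to 8703 after acrolein (median 3021), with a hippocampus mean of 94.3. Its log2 difference was 0.03 (SE 0.53, 95% interval -1.10 to 1.16). ENSRNOT00000095213 ran from 735 to 7712 in air (median 2696) and from 445 to 6873 after acrolein (median 3248), with a hippocampus mean of 29.9. Its log2 difference was 0.04 (SE 0.73, 95% interval -1.52 to 1.60). These margins were wider than the median of the 34 rows, while the most abundant of the 34 (mean 8027) had a margin of 0.58. For both rows the ranges of the groups largely coincided, and differences of 2-fold lay inside the interval.

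The median deviation of the 34 rows from their own means gave each sample a score on the log2 scale. It was lowest in air 7 (-0.57) and highest in air 5 (0.32), so the extremes were both air samples. Acrolein samples ran from -0.25 to 0.26. In bulk tissue, a smaller dissected share of the region and less RNA per cell cannot be told apart.

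**Figure D5:**
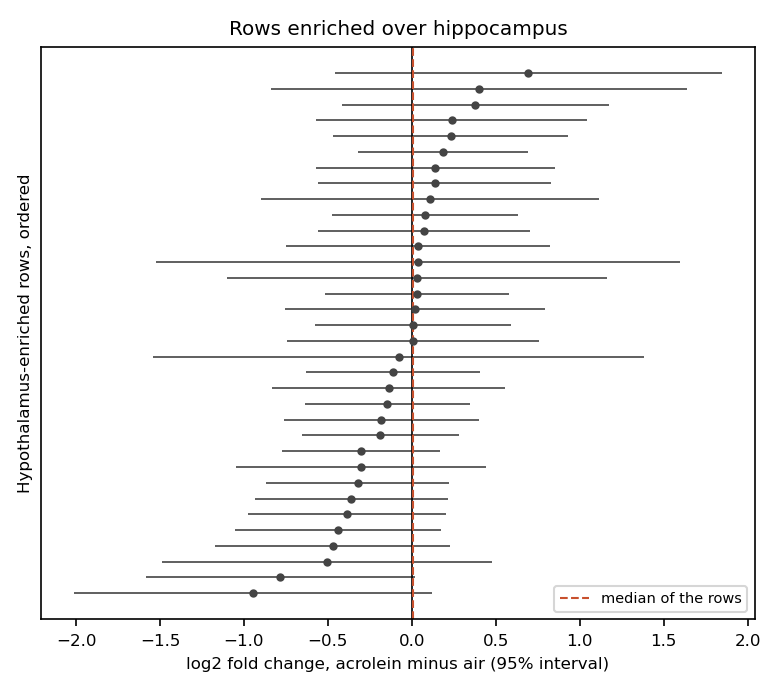
log2 fold change of acrolein against air for the 34 hypothalamus-enriched rows, ordered by size, with 95% intervals from limma. The dashed line at 0.005 is their median, and the intervals of all 34 rows include 0.

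For rows restricted to 1 other tissue, none of the 6 tissues tested had a share that passed the test between acrolein and air. The hippocampus had 0 such rows, so its share was not tested. Each sample's share is the median over such rows of the hypothalamus value over that tissue's air mean, in ppm of that level. Over the 12 samples it ran from 180 to 1945 for nasal epithelium (70 rows), from 0 to 618 for lung (21 rows), from 0 to 336 for liver (236 rows), from 109 to 772 for adrenal (14 rows), from 25.7 to 676 for adipose (12 rows) and from 369 to 1983 for muscle (104 rows). A low hypothalamus mean was part of the row choice, so the low level itself is no finding. The smallest p was for adipose rows, with a mean of 125 after acrolein against 294 in air (exact permutation test, two-sided, p = 0.132, adjusted over 6 tissues 0.792), and the adjusted p for each of the other 5 tissues was 1. The liver share averaged 61.8 after acrolein against 19.6 in air, and 1 sample, acrolein 10, was at 336.

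The direction of the small differences was set beside that in the hippocampus, measured in other libraries. Sample numbers shared between the tissues were 4 in air and 6 in acrolein, so the points may share animals as well as rows. Over 19758 rows tested in both, 67.3% had the same sign, and of the 533 rows at an unadjusted p under 0.05 in the hypothalamus, 400 did (75.0%). Of the 861 hippocampus rows at that level, 734 had the hypothalamus sign. Over 10746 rows with a mean of at least 100 in both, Pearson's r between the log2 differences was 0.58 across genes, which are not independent replicates.

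The hippocampus did not stand alone in this. For the lung, 64.0% of rows had the same sign as in the hypothalamus (r = 0.55 over 9008 rows), and for nasal epithelium 58.9% did (r = 0.24 over 9868 rows). For the liver the signs were mostly opposite, with 35.9% the same and r = -0.48 over 7416 rows. The same sign was seen in 46.9% of rows for adrenal (r = -0.11), 50.2% for adipose (r = 0.09) and 50.7% for muscle (r = 0.09). The shared direction with hippocampus also depended on single samples: of the hypothalamus rows at an unadjusted p under 0.05, 88.2% had the hippocampus sign without air 6 and 53.2% without acrolein 11. What these tissues share was not tested, and the values are given as a description.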

How the data were processed

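RNA of 12 hypothalamus samples (6 air, 6 acrolein) was sequenced by the authors after mRNA library preparation. Partek Flow, the rn7 build and Ensembl gene models served for mapping, and DESeq2 for normalization. These steps are described for liver in the study's methods. Deposited values are therefore a signal (reads the authors divided by 1 factor per sample), in 1 table per tissue, so tests stayed within a table. Whole reads were recovered with each column's smallest non-zero value (100% of hypothalamus values whole within 0.01). No column was left unmapped.

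limma 3.58.1 in R 4.3.3 (lmFit, eBayes with a trend) was run on log2(value + 1) over rows above 0 in at least 2 samples, with Benjamini-Hochberg adjustment. The added 1 makes folds of scarce rows too small. edgeR 4.0.16 and DESeq2 1.42.0 on recovered reads were alternatives. Functions were tested on simulated reads. Samples of 1 group differed by 4.12 to 92.4 times sampling noise (median chi-square ratio of 30 pairs), and each was counted as 1 sample. The closest pair was air 1 and air 3, and repeat libraries of 1 animal could also exceed that noise. Intervals cover sample spread, and depth limits rows with few reads.

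Rows were named by the smallest unadjusted p in each direction, among rows with a mean of at least 10, at most 2 each, because no symbols were paired. For that reason the planned gene lists, named stress and hormone genes, and cell type markers (hypothalamus, glia, choroid plexus, pituitary and others) were not computed. Rows and lists were chosen with earlier results of these data known. Alternatives covered the pseudocount, filters, scaling, sample weights, tools, thresholds and samples.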

Additional observations from a re-analysis of the deposited data

Results flagged for a closer look

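In 34 sets of 6 samples (17 measures in each group), the lowest or highest sample was tested for its gap to the others with Dixon's ratio. It passed the 95% value in 7 sets. A chance rate of about 1 in 20 holds for independent, normally distributed values. These measures come from the same samples and the shares have a floor at 0, so the count cannot be judged against that rate. Air 6 was at 96.6 on the first principal component and the next air sample at -24.5. Acrolein 12 was at 69.9 for ENSRNOT00000044575 and the next acrolein sample at 9.54. The share of lung-restricted rows was 618 ppm of the lung's air level in acrolein 11 and 204 in the next sample. That of adipose-restricted rows was 353 ppm in the same sample and 141 in the next. The share of liver-restricted rows was 336 ppm in acrolein 10 against 34.4, and 75.6 in air 6 against 21.1. The share of muscle-restricted rows was 1983 ppm in air 7 against 817. Air 7 also had the lowest score of the hypothalamus-enriched rows (-0.57). The acrolein 10 sample with the high liver share was the 1 acrolein sample near 0 for ENSRNOG00000067743. Causes were not tested.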

How the results depend on the processing

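Rows called by limma stayed at 0 under other pseudocounts (0.1 and 5), filters, scalings, sample weights, adjusted p limits (0.05 and 0.2) and with no fold limit; DESeq2 called 1. Leaving out 1 sample gave 0 to 1 with limma, the 1 being ENSRNOG00000067743 without acrolein 10 (adjusted p 0.0171), 0 with edgeR and 0 to 538 with DESeq2, the 538 without air 6. The edgeR and DESeq2 fits with a sample left out were chosen after seeing the data. Rows at an unadjusted p under 0.05 ran from 294 (without air 7) to 2498 (without air 6), with 306 without air 3, 295 without air 5 and 872 without acrolein 12, and came to 1914 with sample weights. In 2 further settings, also chosen after seeing the data, more than 1 sample was left out. There were 1848 such rows and 119 DESeq2 calls without air 6 and acrolein 15, and 1887 and 255 without acrolein 11 as well. The percent of these rows with the hippocampus sign was 81.8 with a mean of at least 10, 69.9 without a trend, 70.6 with weights, 81.4 with DESeq2 and 86.2 without air 6 and acrolein 15, and ran from 53.2 to 88.2 with 1 sample left out. The 4 leading rows kept their direction in 25 of 25 alternatives each. They were picked for that difference in these same samples, so the count is no separate support. The median of the hypothalamus-enriched rows moved by less than the spread between samples, from -0.21 to 0.02 with 1 sample left out. Acrolein minus air shares, in ppm of the tissue's air level, changed sign with 1 sample left out for adrenal (-59.7 to 66.2), liver (-12.7 to 54.6), lung (-88.6 to 35.1) and muscle (-138 to 264). No paired analysis was possible because air and acrolein hypothalamus samples share no number. Causes were not tested, and rows under a mean of 10 are limited by depth.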
